A study of Mus musculus with 12 samples.

Results

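The 9 genes described here encode transcription factors that drive adipogenesis, the conversion of precursor cells into fat cells, or keep mature fat cells in their state. They are Cebpb, Cebpd, Cebpa, Pparg, Rxra, Nr1h3, Ebf1, Ebf2 and Stat5a. They were chosen by name, with earlier results of these data known. Matching was by symbol in a table of read counts for 27179 mouse genes, which holds a row for 9 of the 9. All 9 were among the 16175 genes that passed the filter on low counts.

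RNA was sequenced from epididymal white adipose tissue, a fat pad of the abdomen that adjoins the epididymis, of male C57BL/6J mice fed chow. In the epinephrine group, 6 mice were injected into the peritoneum with sodium epinephrine in saline at 0.5 mg/kg, and in the vehicle group 6 mice received the same volume of saline. Tissue was taken 1 h later, and each library is 1 mouse, named here by its group and its replicate number. The listed ages run from 18 to 23 weeks for epinephrine and from 12 to 17 weeks for vehicle, so that age and treatment cannot be told apart if the listed ages are right. Within each group the listed age rises with replicate number, so number and listed age cannot be told apart there.

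In the textbook order of adipogenesis, C/EBP beta and C/EBP delta appear first and switch on the genes of PPAR gamma and C/EBP alpha, which then maintain each other and the genes of the mature fat cell. PPAR gamma binds DNA as a pair with RXR alpha, which is also the partner of LXR alpha, the product of Nr1h3. EBF1 and EBF2 act on fat precursor and fat cells, and STAT5A carries signals from growth hormone and related cytokines to the nucleus. Epinephrine acts on fat cells through adrenergic receptors that change cyclic AMP, and agents that raise cyclic AMP are used to start adipogenesis in culture, where they act on Cebpb.

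Cebpb changed and is contrasted below with Cebpa, so the start regions of these genes are shown with that of the fat cell isoform of Pparg. Each sequence runs 5′ to 3′ from 250 bases before to 50 bases after an annotated RefSeq gene start on GRCm38.p6, all on the plus strand. Capitals in the first and second mark TGACG or its complement CGTCA, a short form of the cyclic AMP response element TGACGTCA. Capitals in the third mark TTGCNNAA or its complement TTNNGCAA, a pattern bound by C/EBP proteins.

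Cebpb, chr2:167688665-167688964: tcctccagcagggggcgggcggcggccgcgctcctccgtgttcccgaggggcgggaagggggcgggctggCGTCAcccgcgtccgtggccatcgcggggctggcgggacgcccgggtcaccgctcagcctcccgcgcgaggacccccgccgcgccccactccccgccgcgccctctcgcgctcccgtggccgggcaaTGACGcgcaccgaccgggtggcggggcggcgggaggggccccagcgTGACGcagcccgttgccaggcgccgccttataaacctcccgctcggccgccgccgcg

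Cebpa, chr7:35119043-35119342: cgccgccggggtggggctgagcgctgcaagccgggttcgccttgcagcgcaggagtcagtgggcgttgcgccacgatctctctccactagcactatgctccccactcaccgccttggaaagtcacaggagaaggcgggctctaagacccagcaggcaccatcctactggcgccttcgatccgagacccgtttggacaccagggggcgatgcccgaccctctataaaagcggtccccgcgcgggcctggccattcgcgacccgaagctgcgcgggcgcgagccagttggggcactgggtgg

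Pparg, chr6:115421816-115422115: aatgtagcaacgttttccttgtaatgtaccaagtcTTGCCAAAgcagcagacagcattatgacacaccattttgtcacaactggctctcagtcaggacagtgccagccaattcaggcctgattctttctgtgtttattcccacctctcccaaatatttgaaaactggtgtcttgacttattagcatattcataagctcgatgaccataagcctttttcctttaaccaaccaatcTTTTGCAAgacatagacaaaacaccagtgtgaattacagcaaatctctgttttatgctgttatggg

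The Cebpb region held 3 copies of TGACG, which began 180, 53 and 7 bases before the gene start, and the Cebpa region held 0. The pattern was not particular to Cebpb among the 9 genes: 1 start region of Stat5a also held 3 copies and 1 of Ebf1 held 1 copy. Of 32851 start regions of all genes, 20.8% held at least 1 copy on either strand. The full element TGACGTCA was in 1.79% of all start regions and in 0 of the 3 shown. The Pparg region held 2 copies of the C/EBP pattern, beginning 215 and 16 bases before the start. At least 1 copy of it was in 10.8% of all start regions. For neither pattern was the share of start regions with more than 1 copy counted. The other 2 listed start regions of Pparg held 0. Start regions were listed for 7 of the 9 genes, 13 in all. These matches describe letters and say nothing of binding.

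Libraries held between 24821601 and 34405433 counted reads. The 10 adipocyte markers were all detected, and their summed level was 16743 to 38399 CPM (counts scaled to a common library total) with epinephrine and 12320 to 38438 CPM with vehicle. Markers of the epididymis and testis were also present, and unevenly so. Their 15 genes summed to between 35.7 and 35667 CPM with epinephrine and between 11.9 and 51500 CPM with vehicle. Gpx5, which encodes a secreted enzyme of the epididymis, took 1.09% and 0.930% of counts in epinephrine 1 and 2 and 1.98% in vehicle 2. In each of the other 9 libraries it took at most 0.398%, the value of vehicle 3, with vehicle 4 next at 0.0523%. These 9, called poor in Gpx5 below, are thus not free of it. At an edgeR adjusted p under 0.05, 6.23% of all tested genes passed, 2.65% higher and 3.58% lower. Of the other marker lists, 0 of 10 fibroblast, 0 of 6 mesothelial, 0 of 4 B cell and 0 of 4 neutrophil genes passed. Higher were 1 of 8 endothelial and 1 of 7 smooth muscle genes, and 1 of 4 red cell genes was lower. Of 8 T and NK cell genes 1 was higher and 1 lower. At the share of all genes, lists this short hold few or no calls, so they do not show that cell types were unchanged. The fold changes and count ratios that turn on the 3 libraries rich in Gpx5 are also given without them; the order of levels was tested with them only. In bulk tissue, fewer cells of a type and less RNA per cell cannot be told apart.

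Of the 9 factors, Cebpb rose with epinephrine and 8 did not pass the test, Cebpa and Cebpd among them. At an edgeR adjusted p under 0.05, 6.23% of the tested genes passed, 2.65% higher and 3.58% lower, against 1 of 9 higher and 0 of 9 lower here. Over all genes 579 were lower, and 365 were when replicate number entered the edgeR fit as a block. The median log2 fold change was 0.00 for the 9 genes and -0.00 for all tested genes. For 8 of the 9 genes the levels of the groups overlapped. Among the 8, 4 averaged higher and 4 lower with epinephrine.

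Cebpb encodes C/EBP beta, an early factor of adipogenesis that also serves in acute phase and stress responses. It had 174, 193, 298, 294, 319 and 301 CPM in epinephrine 1 to 6, against 47.0, 67.9, 113, 63.4, 113 and 126 CPM in vehicle 1 to 6. Every epinephrine library lay above every vehicle library, a separation seen in 2.04% of tested genes in this direction and in 2.74% in the other, where 0 of the 9 genes stood. The lowest epinephrine values were in the 2 libraries rich in Gpx5. Cebpb rose 2.97-fold, with a mean of 263 ± 62.8 CPM with epinephrine and 88.5 ± 32.9 CPM with vehicle (SD, n = 6 each). Its log2 fold change in edgeR was 1.57 ± 0.26 (SE, 95% interval 0.99 to 2.15, adjusted p = 0.00473).

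Without the 3 libraries rich in Gpx5, Cebpb averaged 303 ± 11.2 CPM with epinephrine (SD, n = 4) and 92.6 ± 35.0 CPM with vehicle (SD, n = 5). The log2 fold change in edgeR was then 1.71 ± 0.28 (SE, adjusted p = 0.00505). It was 1.56 (SE 0.39, edgeR adjusted p = 0.41) within replicate numbers 1 to 3, where 0 genes of the whole table passed in either direction and 1356 had an unadjusted p under 0.05, and 1.59 (SE 0.25, edgeR adjusted p = 0.0171) within numbers 4 to 6. Summed macrophage markers, from cells that also express Cebpb, were at 693 to 2007 CPM with epinephrine and 728 to 1558 CPM with vehicle, with 0 of 10 past the test. Their median log2 fold change was -0.05, and the 2 with the smallest p pointed in opposite directions. They were Cd14, a receptor gene of macrophages (edgeR log2 fold change 1.29 ± 0.35 SE, adjusted p = 0.0502), and Ccr2, a chemokine receptor gene of monocytes (edgeR log2 fold change -0.94 ± 0.32 SE, adjusted p = 0.127). Their part in the result was not tested.

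Cebpb (Entrez gene 12608) lies on the plus strand of chromosome 2, positions 167688915 to 167690432 of GRCm38.p6, and has a single-exon transcript in GENCODE M21. Of its 1504 exon bases, 312 are shared with exons of Tmem189, listed as Peds1 in the count table, on the opposite strand. Whether strand was used in counting is not given in the sources used here. Peds1 was at 89.3 ± 18.3 CPM with epinephrine and 68.6 ± 10.3 CPM with vehicle (SD, n = 6 each; edgeR log2 fold change 0.38 ± 0.13 SE, adjusted p = 0.145).

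**Figure D1:**
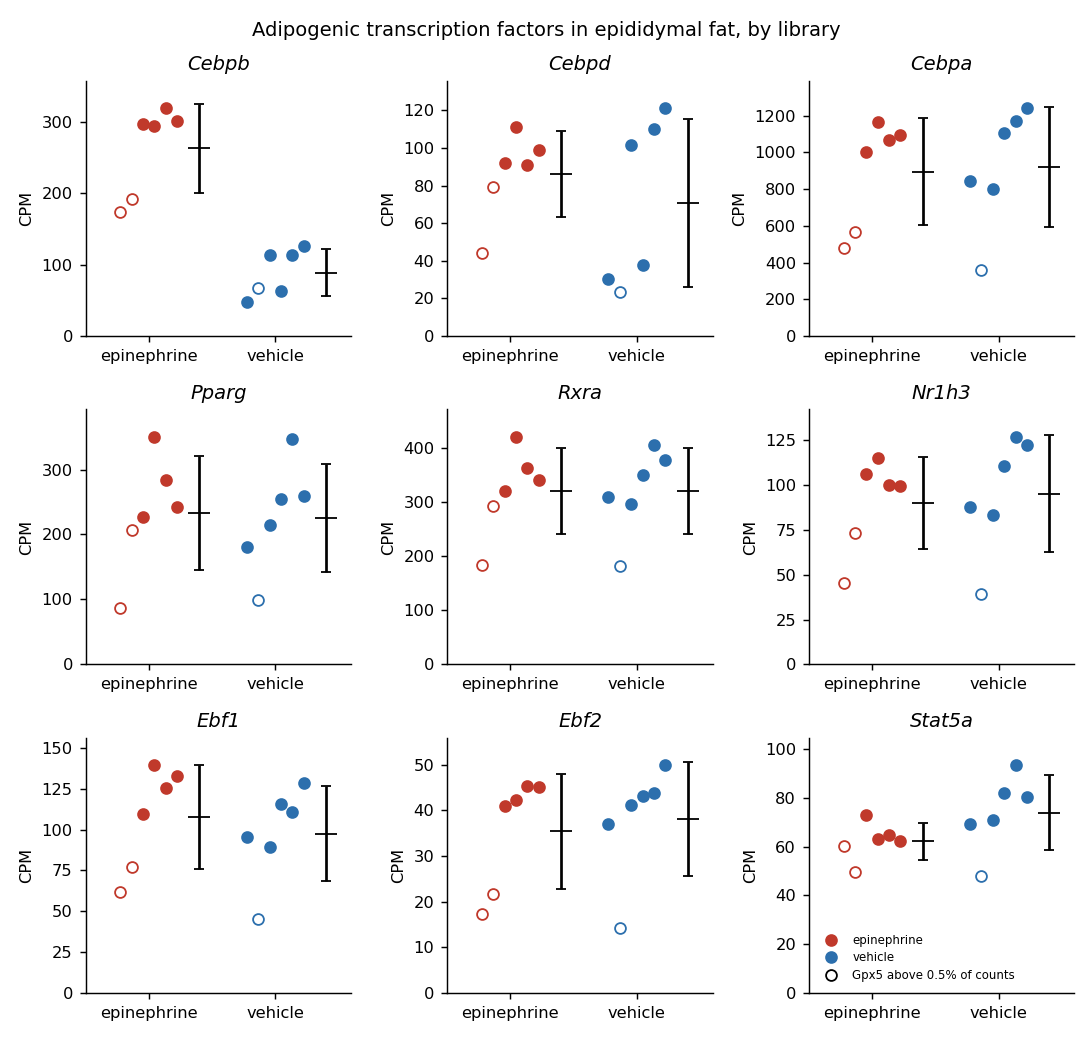
CPM of each of the 9 genes (y axis, from 0) in the 6 epinephrine and the 6 vehicle libraries, in order of replicate number within a group; bars give the mean and SD, and open points are the 3 libraries with Gpx5 above 0.5% of counts. Cebpb separates the groups, at 174 to 319 CPM with epinephrine and 47.0 to 126 CPM with vehicle, while the other 8 genes overlap and are mostly lowest in the open points.

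Cebpd, which encodes C/EBP delta, the other early factor, was at 44.3, 79.2, 92.0, 111, 91.1 and 98.8 CPM in epinephrine 1 to 6. In vehicle 1 to 6 it was at 30.2, 23.6, 102, 37.6, 110 and 121 CPM. The vehicle mice thus lay at separate levels, with numbers 3, 5 and 6 at or above the level of most epinephrine mice and numbers 1, 2 and 4 below all of them. Cebpb was also highest among vehicle libraries in numbers 3, 5 and 6. The log2 fold change of Cebpd was 0.29 (SE 0.42, edgeR adjusted p = 0.858), and its 95% interval of -0.63 to 1.20 includes a 2.30-fold rise. Exons of Spidr on the opposite strand cover 15.0% of the 3746 exon bases of Cebpd in GENCODE M21. The count table lists Cebpd at 2260 bases, so the share of counted bases may differ. Spidr had a log2 fold change of 0.04 (SE 0.15, edgeR adjusted p = 0.952).

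Cebpa encodes C/EBP alpha, which upholds the mature fat cell. It ranged from 481 to 1163 CPM with epinephrine (median 1033) and from 360 to 1239 CPM with vehicle (median 973). The groups covered almost the same range. Its log2 fold change in edgeR was -0.04 ± 0.31 (SE, 95% interval -0.72 to 0.64, adjusted p = 0.982).

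The 3 C/EBP genes can be set against each other within each library, which leaves scaling out. Log2 ratios of counts were compared between groups for 7 pairs of related genes by an exact two-sided permutation test over libraries, where the smallest possible p is 0.00216. The ratio of Cebpb to Cebpa was 0.360, 0.340, 0.297, 0.253, 0.300 and 0.276 in epinephrine 1 to 6. It was 0.0559, 0.189, 0.142, 0.0574, 0.0968 and 0.102 in vehicle 1 to 6, so the groups did not overlap. The log2 ratio was 1.64 higher with epinephrine, a 3.11-fold difference (exact permutation test, p = 0.00216, adjusted p = 0.0152 over 7 pairs). The labels do not say that replicate numbers pair mice. Pairing the mice by number, the same difference had p = 0.0312 and an adjusted p = 0.109 in the exact sign-flip permutation test. The p of 0.0312 is the smallest that 6 pairs of mice can give. Adjusted over 7 pairs of genes, it passes only if most of the other pairs of genes reach it too. Leaving out the libraries rich in Gpx5, the difference was 1.72 (exact permutation test, p = 0.00794, adjusted p = 0.0278).

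Cebpb and Cebpd also differed in response. The log2 ratio of Cebpb to Cebpd was 1.63 ± 0.25 with epinephrine and 0.53 ± 0.57 with vehicle (SD, n = 6 each; difference 1.10, exact permutation test, p = 0.00649, adjusted p = 0.0227). Paired by number, the adjusted p was 0.146 in the exact sign-flip permutation test. Number 2 went the other way, with 1.28 in epinephrine 2 and 1.53 in vehicle 2. In the 9 libraries poor in Gpx5 the difference was 1.30 (exact permutation test, p = 0.00794, adjusted p = 0.0278). Vehicle 2, at 1.53, lay within the epinephrine range of 1.28 to 1.97. For Cebpd against Cebpa, the difference was 0.54 (exact permutation test, p = 0.195, adjusted p = 0.341), and the groups overlapped.

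**Figure D2:**
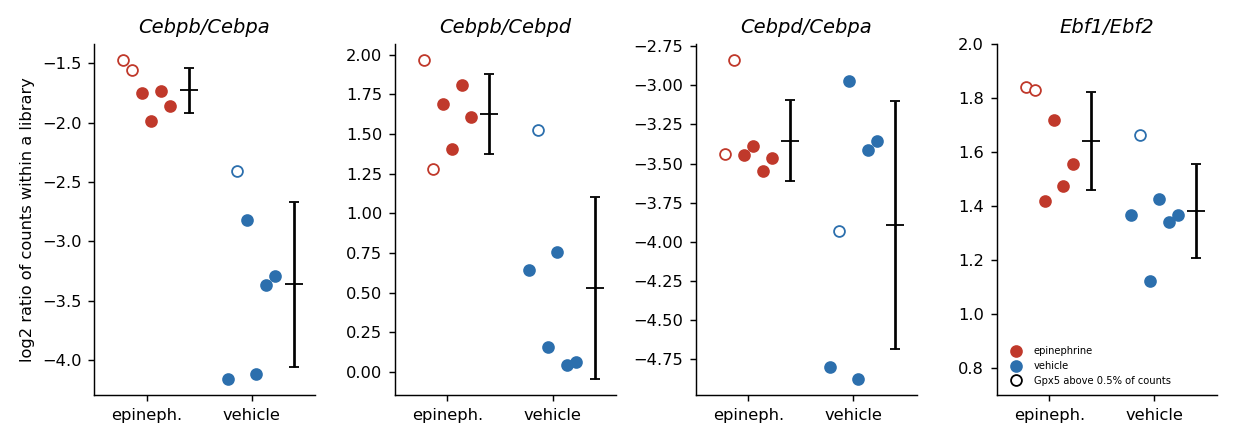
Log2 ratio of the counts of the first gene to those of the second within a library (y axis) for 4 pairs, with epinephrine at the left and vehicle at the right of each panel; bars give mean and SD, and open points are libraries with Gpx5 above 0.5% of counts. The groups separate for Cebpb/Cebpa, with epinephrine at -1.98 to -1.47 and vehicle at -4.16 to -2.41, and overlap in the other 3 panels.

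Pparg encodes PPAR gamma, the nuclear receptor that directs fat cell formation. It was at 87.3 to 350 CPM with epinephrine (median 234) and at 99.3 to 346 CPM with vehicle (median 234). The lowest library of each group was epinephrine 1 and vehicle 2. The log2 fold change in edgeR was 0.04 ± 0.33 (SE, 95% interval -0.67 to 0.76, adjusted p = 0.98). Counts are summed over isoforms, so the use of the start region shown above was not measured.

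Rxra, the partner of PPAR gamma and LXR alpha, was at 184 to 420 CPM with epinephrine (median 330) and at 181 to 405 CPM with vehicle (median 329). Its mean was 320 CPM in both groups, with a log2 fold change of 0.00 (SE 0.22, 95% interval -0.47 to 0.47, edgeR adjusted p = 0.999). Nr1h3, whose product LXR alpha senses oxysterols, was at 45.3 to 115 CPM with epinephrine (median 99.8) and at 39.4 to 127 CPM with vehicle (median 99.2; edgeR log2 fold change -0.08 ± 0.28 SE, adjusted p = 0.95). The ratios to Rxra moved little. The log2 ratio of Pparg to Rxra differed by 0.02 (exact permutation test, p = 0.885, adjusted p = 0.885) and that of Nr1h3 to Rxra by -0.05 (exact permutation test, p = 0.682, adjusted p = 0.795).

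Ebf1 and Ebf2 encode early B cell factors, of which EBF2 is known for its part in brown and beige fat. Ebf1 was at 61.7 to 139 CPM with epinephrine (median 118) and at 45.2 to 128 CPM with vehicle (median 103). Ebf2 was at 17.2 to 45.2 CPM with epinephrine (median 41.6) and at 14.2 to 49.9 CPM with vehicle (median 42.1). Both spanned nearly the same range in both groups, with log2 fold changes of 0.14 (SE 0.26) and -0.11 (SE 0.31) and edgeR adjusted p = 0.893 and 0.94. The log2 ratio of Ebf1 to Ebf2 was 1.64 ± 0.18 with epinephrine and 1.38 ± 0.17 with vehicle (SD, n = 6 each). That difference of 0.26 did not pass (exact permutation test, p = 0.0368, adjusted p = 0.0859 over 7 pairs). Paired by number, the ratio was higher with epinephrine in 6 of 6 pairs, as for Cebpb to Cebpa, with p = 0.0312 and adjusted p = 0.109 in the exact sign-flip permutation test. In the 9 libraries poor in Gpx5 the difference was 0.22 (exact permutation test, p = 0.0238, adjusted p = 0.0556). With 1 library left out at a time, the difference passed in 1 of 12 tests. That was the test without vehicle 2, at 0.32 (exact permutation adjusted p = 0.0253).

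Stat5a had the second smallest p of the 9. It was at 49.8 to 72.9 CPM with epinephrine (median 62.9) and at 47.9 to 93.5 CPM with vehicle (median 75.8), and the groups overlapped. Its log2 fold change in edgeR was -0.25 ± 0.14 (SE, 95% interval -0.56 to 0.06, adjusted p = 0.431). Within numbers 4 to 6 it was -0.43 (SE 0.07, edgeR adjusted p = 0.0168), and within numbers 1 to 3 it was -0.03 (SE 0.21, edgeR adjusted p = 0.998). The difference between these subsets was not tested, and their listed ages differ too. Stat5a and its neighbour Stat5b are close paralogs whose shared reads the counting may have divided or dropped. Stat5b had a log2 fold change of -0.08 (SE 0.15, edgeR adjusted p = 0.896), and the log2 ratio of Stat5a to Stat5b differed by -0.14 (exact permutation test, p = 0.299, adjusted p = 0.418).

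**Figure D3:**
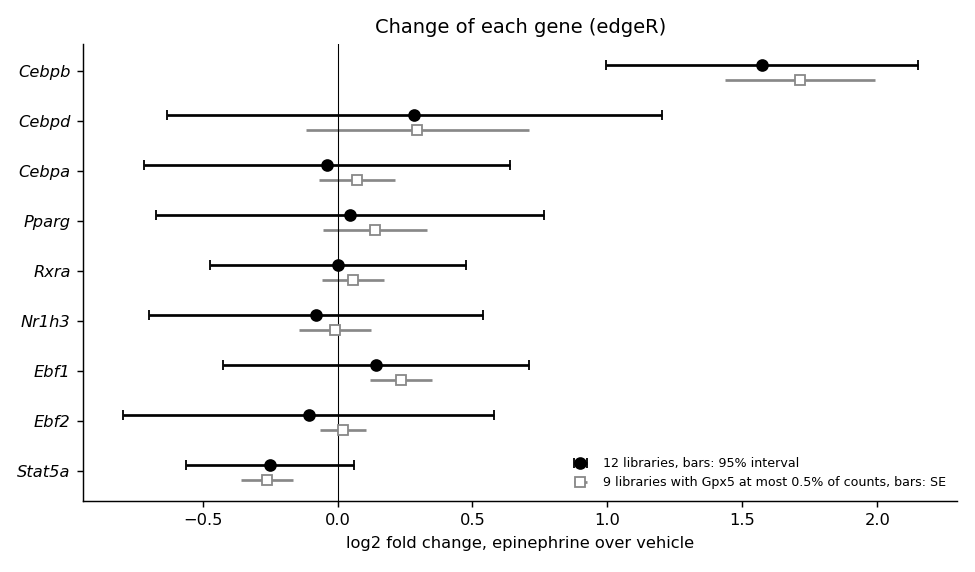
Log2 fold change of each gene, epinephrine over vehicle (x axis), in all 12 libraries (filled, bars 95% interval) and in the 9 libraries with Gpx5 at most 0.5% of counts (open, bars SE). The interval of Cebpb, 0.99 to 2.15, lies above 0, and those of the other 8 genes include 0.

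Low values of the 9 genes gathered in particular libraries. Among epinephrine libraries, 8 of the 9 genes were lowest in epinephrine 1, and among vehicle libraries 8 of 9 were lowest in vehicle 2, the libraries with the largest share of Gpx5 in their group. The exceptions were Stat5a, lowest in epinephrine 2, and Cebpb, lowest in vehicle 1. The summed adipocyte markers were also lowest in these libraries, at 16743 CPM in epinephrine 1 and 12320 CPM in vehicle 2. Without the 3 libraries rich in Gpx5, Cebpa averaged 1081 ± 66.8 CPM with epinephrine (SD, n = 4) and 1031 ± 199 CPM with vehicle (SD, n = 5), with a log2 fold change of 0.07 (SE 0.14, edgeR adjusted p = 0.801). Ebf2 then had a log2 fold change of 0.02 (SE 0.08, edgeR adjusted p = 0.919) and Ebf1 one of 0.24 (SE 0.12, edgeR adjusted p = 0.239). For Stat5a the log2 fold change in edgeR was -0.26 ± 0.10 (SE, adjusted p = 0.12). The part of epididymal RNA in the spread was not tested.

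Levels of different genes were compared per length, as TPM (transcript counts per length, scaled to a common total) computed from the counts and the gene lengths of the count table. Cebpa was the most abundant, at 721 ± 236 TPM with epinephrine and 790 ± 271 TPM with vehicle (SD, n = 6 each). Pparg followed, at 249 ± 91.7 TPM with epinephrine and 258 ± 89.8 TPM with vehicle (SD, n = 6 each). Cebpb had 371 ± 89.0 TPM with epinephrine and 133 ± 47.7 TPM with vehicle (SD, n = 6 each), which put it at rank 2 of the 9 with epinephrine and rank 4 with vehicle. Rxra was at 129 ± 31.3 TPM with epinephrine and 138 ± 32.7 TPM with vehicle (SD, n = 6 each). Ebf1, Nr1h3 and Cebpd averaged 100.1, 99.7 and 75.6 TPM over the 12 libraries, Stat5a 38.6 TPM and Ebf2 18.7 TPM.

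Neighbours in this order were compared within libraries by an exact two-sided sign-flip permutation test, adjusted over 8 pairs. Cebpa exceeded Pparg in 12 of 12 libraries, by 1.59 ± 0.28 on the log2 TPM scale (SD, n = 12, exact permutation adjusted p = 0.0013). Pparg and Cebpb did not differ beyond their spread over all 12 libraries (exact permutation adjusted p = 0.69). Within the groups, Pparg was lower than Cebpb by a mean log2 TPM difference of -0.65 with epinephrine (exact permutation adjusted p = 0.0357) and higher by 0.95 with vehicle (exact permutation adjusted p = 0.0625). Ebf1 and Nr1h3 did not differ beyond their spread either (exact permutation adjusted p = 0.723). The other neighbours differed, with exact permutation adjusted p = 0.0345 for Cebpb over Rxra, 0.0013 for Rxra over Ebf1, 0.00293 for Nr1h3 over Cebpd, 0.0109 for Cebpd over Stat5a and 0.0013 for Stat5a over Ebf2. Within the epinephrine group alone these neighbours and Cebpa over Pparg passed, each with an exact permutation adjusted p = 0.0357. Within the vehicle group alone none of the 8 pairs passed. The exact permutation test of 6 libraries gave an adjusted p = 0.0625 for Cebpa over Pparg, Rxra over Ebf1 and Stat5a over Ebf2. The adjusted p of 0.0357 and that of 0.0625 both stand for the smallest p that 6 libraries can give. They differ only in how many of the 8 pairs reached it, so they do not set the groups apart. The mean log2 TPM differences within the groups were 1.57 to 1.61, 0.36 to 0.51 and 1.06 to 1.19 for these pairs, in that order. Nr1h3 exceeded Cebpd by a log2 TPM difference of 0.21 with epinephrine and 0.78 with vehicle, the second with an exact permutation adjusted p = 0.1. Cebpd exceeded Stat5a by 1.20 with epinephrine and 0.45 with vehicle, the second with an exact permutation adjusted p = 0.286. Cebpb exceeded Rxra by 1.53 with epinephrine, and the difference was -0.093 with vehicle (exact permutation adjusted p = 0.656).

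**Figure D4:**
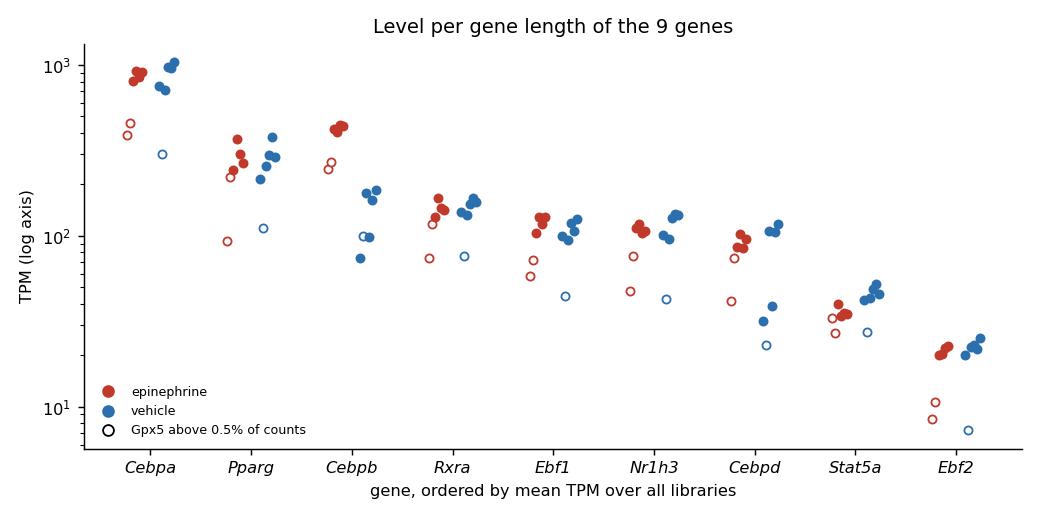
TPM of the 9 genes (log axis) by library, in order of mean TPM, with epinephrine left of vehicle for each gene and open points for libraries with Gpx5 above 0.5% of counts. Cebpa is highest, at 302 to 1036 TPM over all libraries, and Cebpb stands above Rxra with epinephrine and level with it with vehicle.

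Genes whose levels ran closest to Cebpb over the 12 libraries were sought among 12683 annotated genes of adequate level. They were Ier2 (Pearson r = 0.982, rho = 0.979), Fosl2 (r = 0.977, rho = 0.965) and Egr1 (r = 0.976, rho = 0.944), which all encode early-response nuclear factors. These are the highest of many values over libraries that share a treatment difference, so they carry no p. With each group centred on its mean, r was 0.919, 0.895 and 0.893, over the same libraries on which these genes were picked. For Stat5a the closest were Rhbdl1 (r = 0.958, rho = 0.923), Abi3 (r = 0.941, rho = 0.93) and Setd1a (r = 0.94, rho = 0.958), with edgeR adjusted p = 0.716, 0.6 and 0.753 for their change with epinephrine.

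Other genes of the adipogenic network were read from 8 lists, chosen with earlier results of these data known, that hold 89 different tested genes. Of these, 5 were higher and 3 lower, with a median log2 fold change of 0.07, beside 428 higher and 579 lower of 16175 and -0.00 for all tested genes. Among 12 relatives of the 9 factors, 1 was higher and 1 lower (median -0.04). Ddit3, whose product CHOP pairs with C/EBP proteins and blocks them, was at 20.4 to 32.0 CPM with epinephrine (median 30.6) and at 15.7 to 19.5 CPM with vehicle (median 16.9). The groups did not overlap (edgeR log2 fold change 0.71 ± 0.12 SE, adjusted p = 0.00358). Rxrb, a sister gene of Rxra, fell to 43.2 ± 2.71 CPM with epinephrine, against 50.2 ± 1.68 CPM with vehicle (SD, n = 6 each; edgeR log2 fold change -0.22 ± 0.05 SE, adjusted p = 0.0296, and 0.0743 with the replicate block).

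Of 13 other factors that promote adipogenesis, 1 was higher and 0 lower (median 0.01). Klf4, which acts upstream of Cebpb in cultured mouse precursor cells, was at 138 to 315 CPM with epinephrine (median 262) and at 56.3 to 138 CPM with vehicle (median 121; edgeR log2 fold change 1.08 ± 0.24 SE, adjusted p = 0.0216). Its groups overlapped at 138 CPM. The adjusted p was 0.0552 without epinephrine 4, 0.0552 without epinephrine 5 and 0.0503 without epinephrine 6. Klf15 had a log2 fold change of -0.58 (SE 0.20, edgeR adjusted p = 0.131), and passed with the replicate block (edgeR adjusted p = 0.0492).

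Of 12 factors that restrain adipogenesis, 1 was higher and 2 lower (median 0.06). Irf4, which encodes an interferon regulatory factor known to oppose fat storage, was at 210 to 462 CPM with epinephrine (median 311) and at 11.6 to 31.4 CPM with vehicle (median 21.9), with no overlap (edgeR log2 fold change 3.86 ± 0.27 SE, adjusted p = 2.37e-05). Gata2, a factor of fat precursors that holds back Pparg, was at 10.5 to 14.6 CPM with epinephrine (median 12.8) and at 17.4 to 22.7 CPM with vehicle (median 19.4). It fell in every epinephrine library below every vehicle library (edgeR log2 fold change -0.62 ± 0.09 SE, adjusted p = 0.00233). Nr2f2, which encodes COUP-TFII, was at 42.4 ± 4.32 CPM with epinephrine and 53.1 ± 4.37 CPM with vehicle (SD, n = 6 each; edgeR log2 fold change -0.33 ± 0.08 SE, adjusted p = 0.0311). The list thus held changes in both directions.

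Of 14 nuclear receptor coregulators, 1 was higher and 0 lower (median 0.05). This was the acetyltransferase gene Crebbp, at 52.7 ± 2.23 CPM with epinephrine and 45.5 ± 3.22 CPM with vehicle (SD, n = 6 each; edgeR log2 fold change 0.21 ± 0.06 SE, adjusted p = 0.0494, and 0.0988 with the replicate block). Tle3, a coregulator of PPAR gamma, had a log2 fold change of 0.58 (SE 0.17, edgeR adjusted p = 0.0728), and passed with the replicate block (edgeR adjusted p = 0.00453).

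Of 19 fat cell genes known as targets of PPAR gamma and C/EBP alpha, 0 were higher and 0 lower (median 0.19). The nearest were Pck1, at 3926 ± 1312 CPM with epinephrine and 2289 ± 814 CPM with vehicle (SD, n = 6 each; edgeR log2 fold change 0.78 ± 0.33 SE, adjusted p = 0.238), and Angptl4 (edgeR log2 fold change 0.60 ± 0.29 SE, adjusted p = 0.328). Without the 3 libraries rich in Gpx5 both passed, with edgeR adjusted p = 0.00173 for Pck1 and 0.0136 for Angptl4. Of 9 LXR targets, 1 was higher and 0 lower (median 0.07), Lpcat3, a phospholipid acyltransferase gene (edgeR log2 fold change 0.27 ± 0.07 SE, adjusted p = 0.0356, and 0.0565 with the replicate block). Of 6 STAT5 targets, 0 passed (median -0.05), with Socs2 nearest at -0.31 (SE 0.18, edgeR adjusted p = 0.443) and Socs3 next at -0.98 (SE 0.82, edgeR adjusted p = 0.656). Of 5 acute phase genes bound by C/EBP factors, 0 passed (median 0.29), with Orm1 nearest at 0.70 (SE 0.35, edgeR adjusted p = 0.357) and Il6 next at -0.98 (SE 1.14, edgeR adjusted p = 0.792).

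Without the 3 libraries rich in Gpx5, edgeR kept the calls of Ddit3, Klf4, Irf4, Gata2 and Nr2f2, with adjusted p = 0.00113, 3.8e-05, 9.53e-06, 0.00321 and 0.0293. It did not keep those of Lpcat3, Rxrb and Crebbp, with edgeR adjusted p = 0.0531, 0.0554 and 0.0816. Beside Pck1 and Angptl4, it then also called Scd1, a fatty acid desaturase gene and LXR target, at a log2 fold change of 0.75 (SE 0.17, edgeR adjusted p = 0.0227). The other calls gained were Klf2, Klf7 and Tle3, higher, and Klf15, lower.

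The calls in these lists differed in how far they rested on single libraries. With 1 library left out at a time, Ddit3, Irf4 and Gata2 passed in 12 of 12 edgeR fits. Klf4 passed in 9 of 12, as given above. Nr2f2 passed in 5 of 12 and did not pass without epinephrine 3 or 4, or without vehicle 1, 3, 4, 5 or 6. Lpcat3 passed in 4 of 12, those without epinephrine 1 or 6 or without vehicle 2 or 5. Crebbp passed in 3 of 12, those without epinephrine 1 or without vehicle 2 or 5, and Rxrb in 3 of 12, those without epinephrine 1 or 4 or without vehicle 6.

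**Figure D5:**
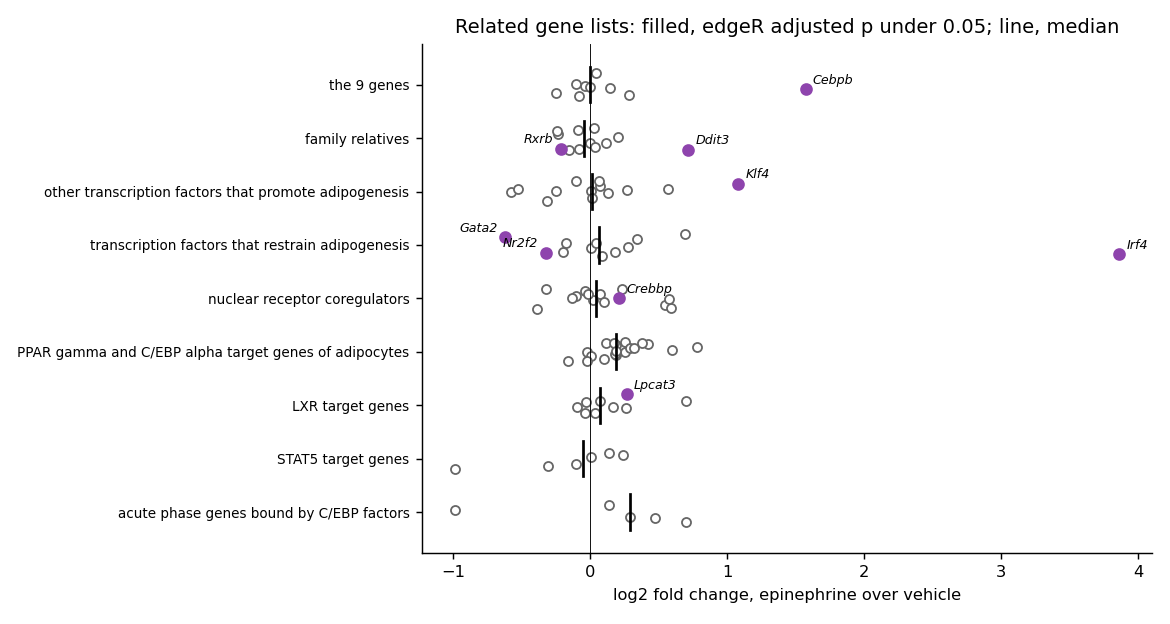
Log2 fold change, epinephrine over vehicle (x axis), of the 9 genes and of the genes in 8 related lists; filled points passed an edgeR adjusted p of 0.05, and lines are medians. Cebpb at 1.57, Klf4 at 1.08 and Irf4 at 3.86 stand farthest to the right among filled points.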

How the data were processed

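Whole-number counts of reads per gene for 12 libraries were deposited by the authors with no normalization, beside variance-stabilized values on a log2-like scale for 20185 genes. Per the submitters' processing notes, the build was mm10, and HISAT2, featureCounts, DESeq2, FastQC and cutadapt were used. The sources used here name no version, annotation or strand setting. Libraries were made with a SMARTER kit, per the labels' protocols.

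Genes were filtered with filterByExpr (minimum count 10, minimum total 15), scaled by TMM and tested with edgeR 4.0.16 (quasi-likelihood, robust) in R 4.3.3, with Benjamini-Hochberg adjustment over all 16175 genes and a threshold of 0.05. CPM are TMM-normalized, and intervals are the log2 fold change plus or minus the t quantile times the SE. TPM used the deposited gene lengths in bases. Ratios of counts used a prior of 0.5. Permutation tests used scipy 1.17.1 and numpy 2.4.6. The edgeR test was checked on simulated counts. Positions and start regions are from RefSeq on GRCm38.p6, and exons are from GENCODE M21. Rows with a gene identifier but no symbol, 1312 in number and 0.253% to 0.315% of counts, stayed in the fit.

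The 9 genes, lists and alternatives were chosen with earlier results of these data known. The text names the 9 genes, list members past the threshold (or the 2 with the smallest p), and the 3 closest genes of Cebpb and Stat5a. Klf15, Klf2, Klf7, Scd1, Tle3, Peds1, Spidr and the further list genes under other observations were named after their values were seen. Replicate numbers come from the titles, and the labels do not say that they pair mice. Same-numbered libraries deviated together in 6 of 6 pairs (r across genes 0.262 to 0.799). Libraries of different number were not compared, so this does not show pairing. A split of numbers 1 to 3 against 4 to 6 could give this too. The share of Gpx5 fell from 1.09% to 0.000875% of counts from epinephrine 1 to 6. It fell from 1.98% to 0.000375% from vehicle 2 to 6, with vehicle 1 at 0.00217%. The alternatives are other scalings, filters, tests and subsets of libraries, limma 3.58.1 and DESeq2 1.42.0 among them.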

Additional observations from a re-analysis of the deposited data

Results flagged for a closer look

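Among 48 sets of 6 libraries, 5 held a library far from the others; chance gives about 1 in 20. Ebf2 was at 14.2 CPM in vehicle 2, with the next at 36.9 CPM. Klf4 was at 56.3 CPM in vehicle 2, with the next at 114 CPM. The log2 ratio of Nr1h3 to Rxra was -2.20 in vehicle 2, with the next at -1.83. The log2 ratio of Pparg to Rxra was -1.08 in epinephrine 1, with the next at -0.50. The log2 ratio of Cebpd to Cebpa was -2.84 in epinephrine 2, with the next at -3.39. Gpx5 took 1.09% of counts in epinephrine 1, 0.930% in epinephrine 2 and 1.98% in vehicle 2, and its part in these values was not tested.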

How the results depend on the processing

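Cebpb kept its direction under 25 alternatives (log2 fold change 1.44 to 1.85) and passed under 24, the exception being numbers 1 to 3 alone. Over all genes, 428 were higher and 579 lower; library-size scaling gave 1448 lower (median of all genes -0.11), DESeq2 759 and 884, limma with weights 1026 and 1503, the replicate block 365 lower, the epididymal covariate 645 and 966, leaving out the libraries rich in Gpx5 786 and 1028, numbers 4 to 6 alone 696 higher, and a threshold of 0.01 228 and 185. Numbers 1 to 3 alone gave 0 and 0 with edgeR, with 0 of the 9 genes. Numbers 4 to 6 alone gave 1 of the 9 genes lower, Stat5a. In the 8 lists, 5 were higher and 3 lower; this became 3 and 7 with library-size scaling, 3 higher with no filter, 12 and 5 with limma with weights, 8 and 5 with the epididymal covariate, 9 higher without the libraries rich in Gpx5, 0 and 0 for numbers 1 to 3, 8 higher for numbers 4 to 6, and 2 and 1 at 0.01. Leaving out 1 library at a time gave 317 to 549 higher and 276 to 797 lower over all genes; dropping epinephrine 4, 3 or 5 gave 314, 362 or 373 lower, and dropping vehicle 4, 1 or 3 gave 276, 353 or 364. It gave 1 higher and 0 lower of the 9 genes, 2 to 6 higher and 1 to 4 lower in the lists, and a Cebpb to Cebpa difference of 1.48 to 1.83. With mice paired by number that difference was still 1.64, at the smallest p that 6 pairs can give (exact sign-flip permutation adjusted p = 0.109). Adjusted over 7 pairs of genes, that p passes only if most of the other pairs of genes reach it too. The Cebpb to Cebpa ratio did not pass in that test, which could hardly call it. The Cebpb to Cebpd ratio did not pass either, and it was lower in epinephrine 2 than in vehicle 2. In edgeR the replicate block ended the calls of Rxrb, Crebbp and Lpcat3. On the log2 TPM scale, Pparg over Cebpb was -0.65 with epinephrine alone, and Cebpb over Rxra was -0.093 with vehicle alone. The cause of these changes was not tested. With 6 mice a group and wide intervals, a gene that did not pass is not shown to be unchanged.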

Other observations

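Vehicle 3, 5 and 6, the vehicle libraries with the highest Cebpb and Cebpd, also had the highest vehicle values of Il6 and Socs3. Il6, an inflammatory cytokine gene, was at 0.446, 1.17, 10.8, 1.49, 2.31 and 2.01 CPM in epinephrine 1 to 6 and at 0.182, 0.145, 5.79, 0.420, 11.4 and 18.1 CPM in vehicle 1 to 6. Socs3, which encodes a feedback inhibitor of cytokine signalling, was at 13.9, 25.8, 135, 40.5, 51.4 and 45.4 CPM in epinephrine 1 to 6. In vehicle 1 to 6 it was at 15.3, 14.1, 87.1, 18.0, 226 and 258 CPM. Il6 and Socs3 were chosen for this description after their values were seen. Of the other genes in the acute phase and STAT5 target lists, Saa3 and Pim1 were also highest in these vehicle libraries. Hp, Lcn2, Orm1, Cish, Socs2, Igf1 and Bcl6 were not. Hp, for example, was at 1828 CPM in vehicle 3 and 2700 CPM in vehicle 4.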
